A study of Mus musculus with 8 samples.

Results

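The acute phase and inflammation-induced plasma protein genes are a set of 32 mouse genes chosen by name: 4 serum amyloid A genes, 3 orosomucoids, 7 genes of haem, iron and metal handling, 2 pentraxins, 3 fibrinogen chains, 6 protease inhibitors or inter-alpha-trypsin inhibitor chains, the negative acute phase gene Ahsg, 2 genes of lipopolysaccharide recognition and 4 genes of cytokine signalling. The arrays carried 31 of the 32 under these names, and all 31 passed the filter on dim probes, out of 17354 genes tested in the whole series. Serpina1a had no probe of that name, so its level was not analysed here, and it counts only in the promoter search below. The arrays measured liver RNA from male wild-type C57Bl/6J mice aged 14 weeks, killed after a fast of 4 hours, with 2 arrays in each of 4 diet groups. BD_HF mice were born to dams on standard breeder diet throughout, and from weaning ate a high fat diet (60% of energy from fat). LF_HF mice came from dams moved at embryonic day 10.5 to a low fat diet of defined make-up (12% of energy from fat) with sufficient vitamin A, and from weaning ate the same high fat diet. VAD_VAD mice had the low fat diet without vitamin A both from their dams and after weaning, and LF_LF mice, their controls, the low fat diet with vitamin A at both stages. The design compares BD_HF with LF_HF (the maternal diet), LF_HF with LF_LF (the diet after weaning) and VAD_VAD with LF_LF (vitamin A deficiency). The labels number the samples of a group without saying that each is a separate mouse, so a p-value here rests on the spread between samples, which may be technical.

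In inflammation the liver changes the plasma proteins it secretes, and this is called the acute phase response. IL-6, acting through its receptor and STAT3, and IL-1 and TNF, acting through NF-kB and C/EBP factors, raise positive acute phase genes such as the serum amyloids and orosomucoids, while negative acute phase genes such as albumin and transthyretin go down. Serum amyloid A travels with high density lipoprotein, haptoglobin and hemopexin bind free haemoglobin and haem, and the metallothioneins Mt1 and Mt2 bind zinc and copper and also answer to zinc and glucocorticoids.

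Probes are given for Saa1, Saa3, Lcn2 and Mt1, which differed widely between arrays, and for Il6ra, the member that passed the limma test, as printed on the array, 5′ to 3′ in lower case, with positions in mm9. They lie at the end of the coding sequence of Saa1 (chr7:53996070-53996129, minus strand), in the coding sequence of Saa3 (chr7:53968031-53968090, minus strand), over a splice junction of Lcn2 (chr2:32241037-32241281, minus strand), in the coding sequence of Mt1 (chr8:96704011-96704070, plus strand), and in 2 stretches of the coding sequence of Il6ra (chr3:89680743-89680802 and chr3:89690491-89690550, both minus strand).
Saa1: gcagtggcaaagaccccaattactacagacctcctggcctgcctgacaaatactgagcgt
Saa3: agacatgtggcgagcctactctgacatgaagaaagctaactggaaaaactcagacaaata
Lcn2: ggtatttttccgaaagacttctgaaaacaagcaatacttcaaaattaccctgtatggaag
Mt1: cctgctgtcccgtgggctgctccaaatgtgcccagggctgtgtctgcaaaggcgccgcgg
Il6ra, first probe: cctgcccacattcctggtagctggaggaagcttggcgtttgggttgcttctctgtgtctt
Il6ra, second probe: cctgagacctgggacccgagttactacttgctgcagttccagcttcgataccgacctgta

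The upstream regions of the serum amyloid genes and of the metallothioneins are shown because these 2 families had some of the widest swings between arrays. RefSeq promoter entries on GRCm38.p6 were found for 26 of the 32 members, and 280 bases of each were searched, 250 before the start of the gene and 30 after it. In the first 3 sequences capitals mark matches to TTNNGNAA, the core that C/EBP factors bind, on either strand. The regions are chr7:46742951-46743230 (minus strand) for Saa1, chr7:46751583-46751862 (plus strand) for Saa2 and chr7:46715647-46715926 (minus strand) for Saa3.
Saa1: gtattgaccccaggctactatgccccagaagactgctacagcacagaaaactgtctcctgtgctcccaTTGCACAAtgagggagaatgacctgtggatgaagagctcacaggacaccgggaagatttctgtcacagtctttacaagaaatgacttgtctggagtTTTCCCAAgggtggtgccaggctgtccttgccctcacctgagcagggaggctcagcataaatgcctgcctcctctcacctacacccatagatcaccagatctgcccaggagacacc
Saa2: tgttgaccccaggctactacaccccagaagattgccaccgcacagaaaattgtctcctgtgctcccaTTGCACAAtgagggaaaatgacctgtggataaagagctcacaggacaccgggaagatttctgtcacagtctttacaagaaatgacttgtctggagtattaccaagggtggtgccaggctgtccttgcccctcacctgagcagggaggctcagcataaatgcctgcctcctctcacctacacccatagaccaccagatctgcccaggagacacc
Saa3: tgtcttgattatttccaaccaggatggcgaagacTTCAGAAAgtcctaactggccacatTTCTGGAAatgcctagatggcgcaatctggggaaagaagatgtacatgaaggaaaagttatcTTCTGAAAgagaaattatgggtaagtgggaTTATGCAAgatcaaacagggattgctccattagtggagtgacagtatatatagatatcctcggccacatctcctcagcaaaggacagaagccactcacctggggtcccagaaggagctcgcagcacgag
In the next 2 sequences capitals mark matches to TGCNCNC on either strand. This pattern is looser than TGCRCNC (R is A or G), the core of the metal response element. In Mt2, GGGAGCA and TGCTCTC fit the looser pattern only. The regions are chr8:94178839-94179118 for Mt1 and chr8:94172368-94172647 for Mt2, both on the plus strand.
Mt1: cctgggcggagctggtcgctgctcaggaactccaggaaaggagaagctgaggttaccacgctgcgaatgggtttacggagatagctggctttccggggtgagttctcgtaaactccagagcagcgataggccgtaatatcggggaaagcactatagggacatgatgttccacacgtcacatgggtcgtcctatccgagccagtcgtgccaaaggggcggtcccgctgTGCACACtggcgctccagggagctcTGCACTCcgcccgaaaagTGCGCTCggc
Mt2: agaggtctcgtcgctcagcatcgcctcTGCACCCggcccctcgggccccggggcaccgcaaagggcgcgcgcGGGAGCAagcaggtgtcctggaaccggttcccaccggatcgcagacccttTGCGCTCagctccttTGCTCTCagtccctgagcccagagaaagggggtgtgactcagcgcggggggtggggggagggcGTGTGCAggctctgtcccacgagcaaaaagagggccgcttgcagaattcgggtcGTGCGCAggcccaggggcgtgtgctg
Saa1 and Saa2, which stand head to head in the genome, were identical at 267 of 281 aligned positions. Saa1 held 2 C/EBP core matches, Saa2 held 1 and Saa3 held 4, and Mt1 held 3 TGCNCNC matches against 6 in Mt2. The C/EBP core was present in 19 of the 26 members (73.1%), against 39.3% of all 32851 promoters in the table. For this and the other motifs, a member counts if any of its promoter entries holds a match. The share of all promoters counts each entry by itself, so the units differ, and Cp and Il1rn had several entries. The loose metal response pattern TGCNCNC was present in 12 of 26 (46.2%), against 48.5% of all promoters. The STAT core TTCNNNGAA was found in Steap4, Apcs, Fga, Fgb, Itih4 and Socs3, 6 of 26 (23.1%), against 7.83% of all promoters. The NF-kB consensus motif, a broad form adopted after a narrower one had been searched first and its result seen, was found in 1 of 26, Steap4, against 4.22% of all. Each motif was searched on both strands, matches to different motifs overlapped once among the members, a C/EBP and an NF-kB match in Steap4, and a match is a description of letters, not of binding.

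Levels are given as the log2 of the array's processed signal minus the log2 of that array's 75th percentile, so 0 is the 75th percentile of the array and a difference of 1 is 2-fold. Levels of different probes cannot be set against each other. The 75th percentile signals ran from 195 to 296 on 7 arrays, and LF_HF replicate 1 stood apart at 496, with 82.2% of its probes well above background against 56.5% to 64.2% on the others, 2707 outlier spots against 46 to 316, and a quality result of "evaluate" from the scanner software. The 4 replicate 1 arrays were on slide 1 and the 4 replicate 2 arrays on slide 2, so each slide held all 4 groups. Of the 31 members, 28 had a value on all 8 arrays. Orm3 had none on LF_HF replicate 1, and Cp and Fgb had none on BD_HF replicate 2, since the spots there were outliers. The defining hepatocyte markers Alb and Ttr were well above background on 8 of 8 arrays. Each of the 28 complete members was also well above background on all 8 arrays.

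The largest differences among the members lay between the 2 arrays of a group, up to 7.16 on the log2 scale. Between the diet groups compared, single arrays of the same slide differed by up to 4.96 (Saa3), and group means by up to 3.19. Members whose 2 arrays differed by more than 1 on the log2 scale numbered 2 of 29 in BD_HF, against 7.41% of all genes, 23 of 30 in LF_HF, against 38.3% of all genes, 13 of 31 in VAD_VAD, against 13.7% of all genes, and 1 of 31 in LF_LF, against 3.15% of all genes. All 23 members in LF_HF were higher on replicate 2, and genes both past 1 and higher on replicate 2 made up 13.9% of all genes. All 13 in VAD_VAD were higher on replicate 1, and genes both past 1 and higher on replicate 1 made up 9.55% of all genes. Hepatocyte markers also passed 1 more often than all genes, 9 of 14 in LF_HF (64.3%) and 5 of 14 in VAD_VAD (35.7%). So did other inflammation-induced liver genes, 16 of 25 in LF_HF (64%) and 9 of 25 in VAD_VAD (36%). Of 13 negative acute phase genes, 8 passed 1 in LF_HF (61.5%) and 1 in VAD_VAD (7.69%). VAD_VAD replicate 1 held the highest of the 8 levels for 22 of the 28 members with all values (78.6%, against 18.7% of all genes). LF_HF replicate 1 held the lowest for 18 of 28 (64.3%, against 39.1% of all genes). With 1 array on each side, these differences have no replicate check. The members' LF_HF count also depended on the processing. With each array's median in place of the 75th percentile, 30 of 30 members passed 1, against 81% of all genes. With normexp background correction and the 75th percentile, 18 of 30 did, against 8.3% of all genes.

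**Figure D1:**
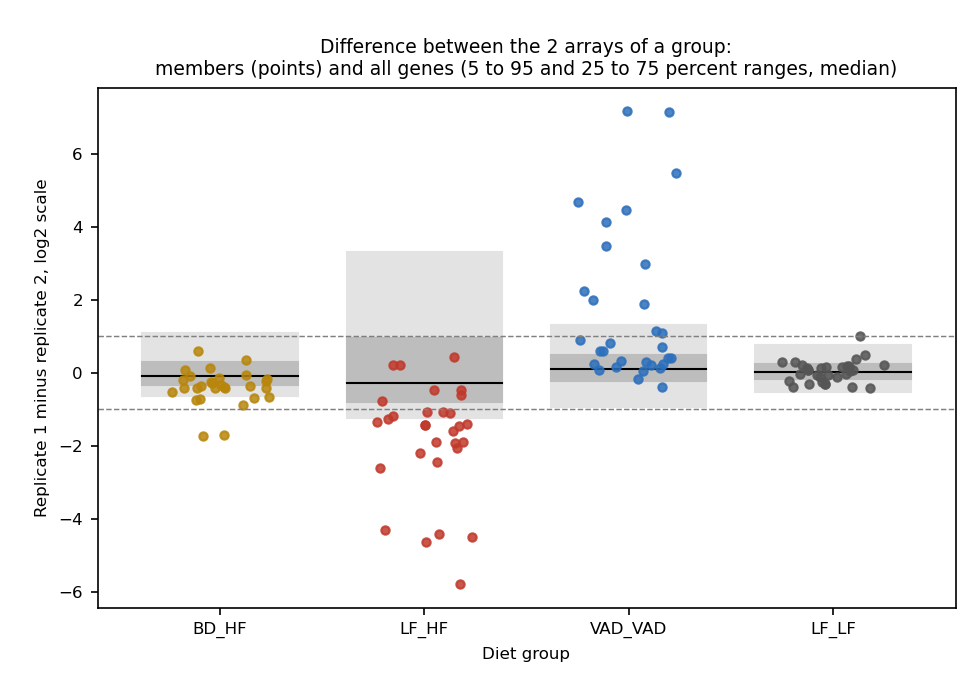
Replicate 1 minus replicate 2 on the log2 scale in each diet group: points are members, grey boxes are the 5 to 95 and 25 to 75 percent ranges of all genes, black lines their medians, and dashed lines mark a difference of 1. Members lie mostly below 0 in LF_HF, where 23 of 30 pass the lower dashed line, and above 0 in VAD_VAD, where 13 of 31 pass the upper.

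The serum amyloid A genes, which encode apolipoproteins of the acute phase, were high on 2 arrays of different groups. Saa1 stood at 4.30 and 4.63 for BD_HF, 4.19 and 8.68 for LF_HF, 10.24 and 5.79 for VAD_VAD, and 5.53 and 5.91 for LF_LF, in each case replicate 1 and then replicate 2. LF_HF replicate 2 and VAD_VAD replicate 1 were thus far above their partners, by 22.6-fold in LF_HF and 21.9-fold in VAD_VAD, and VAD_VAD replicate 2 lay within the range of LF_LF. Saa2 stood at 4.88 and 5.31 for BD_HF, 4.69 and 9.32 for LF_HF, 10.34 and 6.21 for VAD_VAD, and 6.53 and 6.57 for LF_LF. The transcripts of Saa1 and Saa2 are near-identical copies, so their probes may read part of the same signal. Saa3, which macrophages and fat cells also express, stood at 2.18 and 2.60 for BD_HF, 1.99 and 6.30 for LF_HF, 8.27 and 3.60 for VAD_VAD, and 3.31 and 3.57 for LF_LF. The 2 BD_HF arrays and LF_HF replicate 1 were the 3 lowest for all of Saa1, Saa2 and Saa3.

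Saa4, the serum amyloid gene of the set that is made constitutively in human liver, followed a flatter course. It stood at 5.06 and 5.27 for BD_HF, 4.36 and 6.80 for LF_HF, 7.01 and 5.13 for VAD_VAD, and 3.79 and 3.50 for LF_LF. Both LF_LF arrays were the lowest of the 8, and neither LF_HF nor VAD_VAD overlapped them. The difference was 2.43 (SE 0.854, adjusted p = 0.370) for VAD_VAD minus LF_LF and 1.94 (SE 0.854, adjusted p = 0.313) for LF_HF minus LF_LF by limma, and neither passed. All 4 lie within 1 cluster on chromosome 7.

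**Figure D2:**
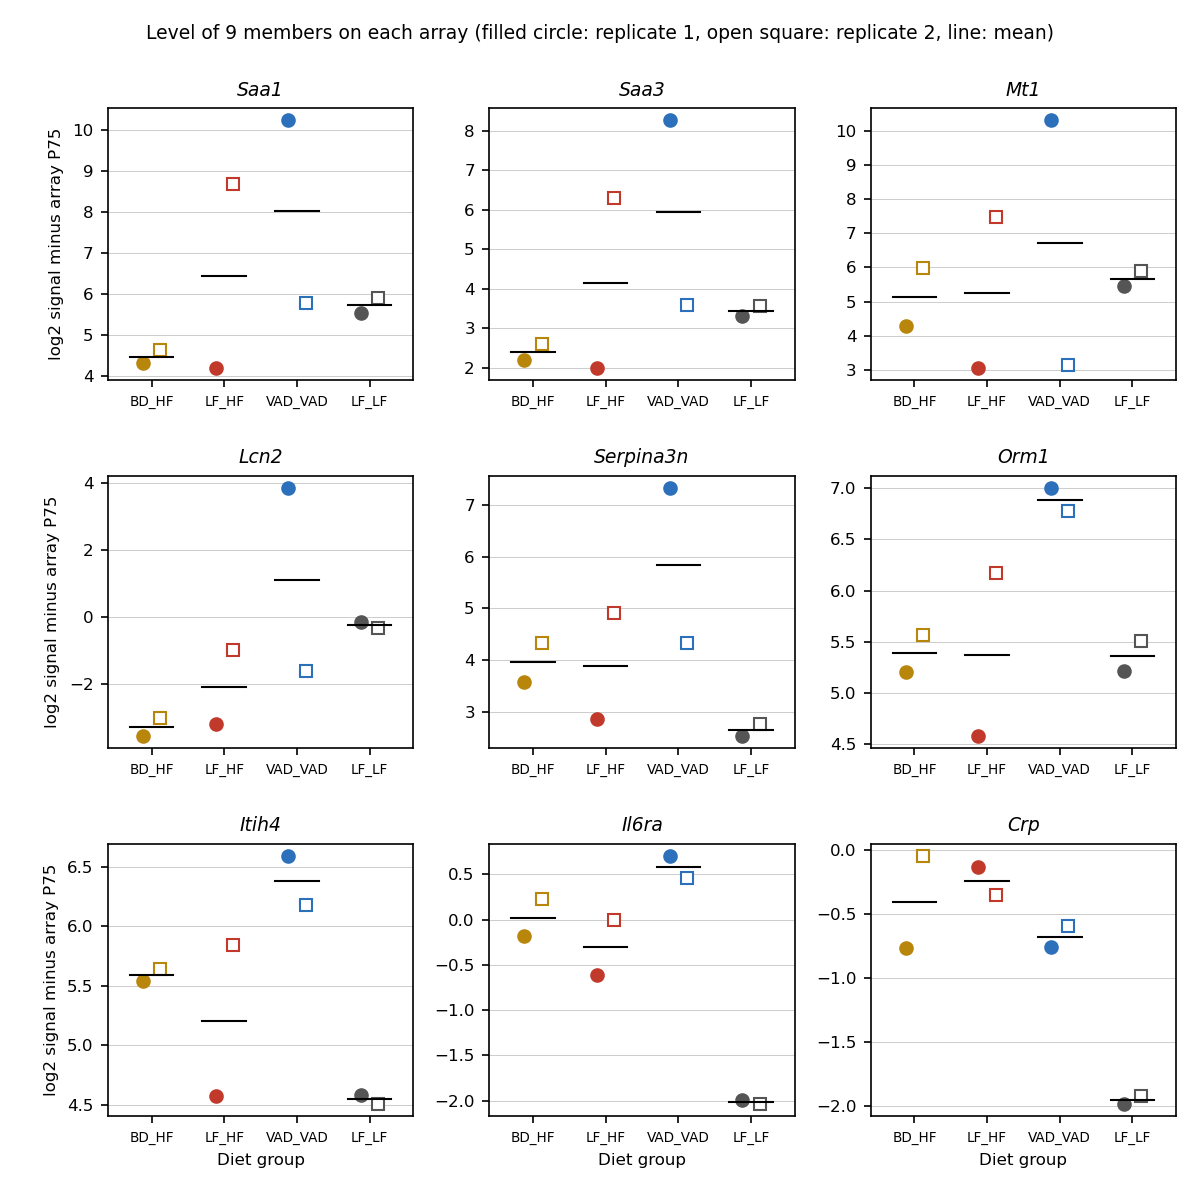
Levels of 9 members on each array, as log2 signal minus the array's 75th percentile (P75); filled circles are replicate 1, open squares replicate 2 and lines group means, and each panel has its own scale. Saa1, Saa3, Mt1, Lcn2 and Serpina3n are highest on VAD_VAD replicate 1, whereas for Il6ra and Crp both LF_LF arrays lie below the other 6.

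The metallothioneins had the widest spread within a group. Mt1 stood at 4.28 and 5.98 for BD_HF, 3.06 and 7.47 for LF_HF, 10.30 and 3.14 for VAD_VAD, and 5.46 and 5.88 for LF_LF. Mt2 stood at 4.04 and 5.77 for BD_HF, 2.30 and 8.09 for LF_HF, 9.91 and 2.76 for VAD_VAD, and 5.92 and 5.96 for LF_LF. Within VAD_VAD the 2 arrays were thus 143-fold apart for each gene, while those of LF_LF differed by 0.42 (log2) for Mt1 and 0.03 for Mt2. Mt1 and Mt2 were also the 2 members past 1 between the BD_HF arrays. A second Mt1 probe was also highest on VAD_VAD replicate 1, at 3.87, with the other 7 arrays between −2.85 and −0.74, but on it LF_HF replicate 2 was the lowest array.

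Lcn2, an iron-siderophore binding protein of liver and neutrophils, stood at −3.55 and −3.03 for BD_HF, −3.19 and −1.0 for LF_HF, 3.85 and −1.63 for VAD_VAD, and −0.15 and −0.32 for LF_LF. VAD_VAD replicate 1 was 44.6-fold above its partner, and that partner lay below both LF_LF arrays. Steap4, a metalloreductase, stood at 1.34 and 0.99 for BD_HF, 0.50 and 3.09 for LF_HF, 3.05 and 1.05 for VAD_VAD, and 0.69 and 0.53 for LF_LF. Here too LF_HF replicate 2 and VAD_VAD replicate 1 were the 2 highest arrays. Hp, encoding haptoglobin, Hpx, encoding hemopexin, and Cp, the copper ferroxidase ceruloplasmin, ranged over 1.56, 1.53 and 1.14 on the log2 scale across all arrays with a value, and each was lowest on LF_HF replicate 1. A second Cp probe had no value on that array. It stood at −0.14 and −0.91 for VAD_VAD and at 0.20 and 0.31 for LF_LF. Its VAD_VAD minus LF_LF difference was −0.78, against 0.37 on the Cp probe used.

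Of the 12 members past 1 in VAD_VAD with a value on both LF_HF arrays, 10 were also past 1 in LF_HF (83.3% of the 12 and 43.5% of the 23 in LF_HF). They were Saa1, Saa2, Saa3, Saa4, Lcn2, Steap4, Mt1, Mt2, Serpina3n and Lbp. The remaining 2 of the 12 were Cd14 and A2m. Over all genes, those past 1 in both, in the same directions, made up 11.0% of the VAD_VAD genes and 7.46% of the LF_HF genes. Among the members with values, 76.7% were past 1 in LF_HF in any case. The 83.3% was thus near the members' own share and does not mark out a subset of them.

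Markers of liver cell types also differed between these arrays, in both directions. In LF_HF the hepatocyte markers were higher on replicate 2, like the members, in 14 of 14 measured, by a median of 1.15 on the log2 scale. In VAD_VAD they were higher on replicate 1 in 13 of 14, by a median of 0.72. Some other cell types went the other way. In LF_HF 9 of 9 endothelial and 7 of 8 lymphocyte markers were higher on replicate 1, and in VAD_VAD 14 of 16 Kupffer cell and macrophage and 4 of 4 erythroid markers were higher on replicate 2. The median member was higher on replicate 2 of LF_HF by 1.43 and on replicate 1 of VAD_VAD by 0.69, while Saa1, Saa2, Saa3, Mt1, Mt2 and Lcn2 differed by 2.19 or more in LF_HF and by 4.13 or more in VAD_VAD. The summed level of 14 of the 16 hepatocyte markers, in units of the 75th percentile, came to 4649 and 4122 on the BD_HF arrays, 2588 and 5743 on the LF_HF arrays, 5951 and 4230 for VAD_VAD, and 3567 and 3604 for LF_LF. Their part in the members' differences was not tested. In liver tissue, fewer cells of a type and less RNA per cell cannot be told apart. The median signal of LF_HF replicate 1 was 163, against 17.4 to 30.8 on the other arrays. The part of that array's signal in the LF_HF differences of markers and members was not tested either.

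**Figure D3:**
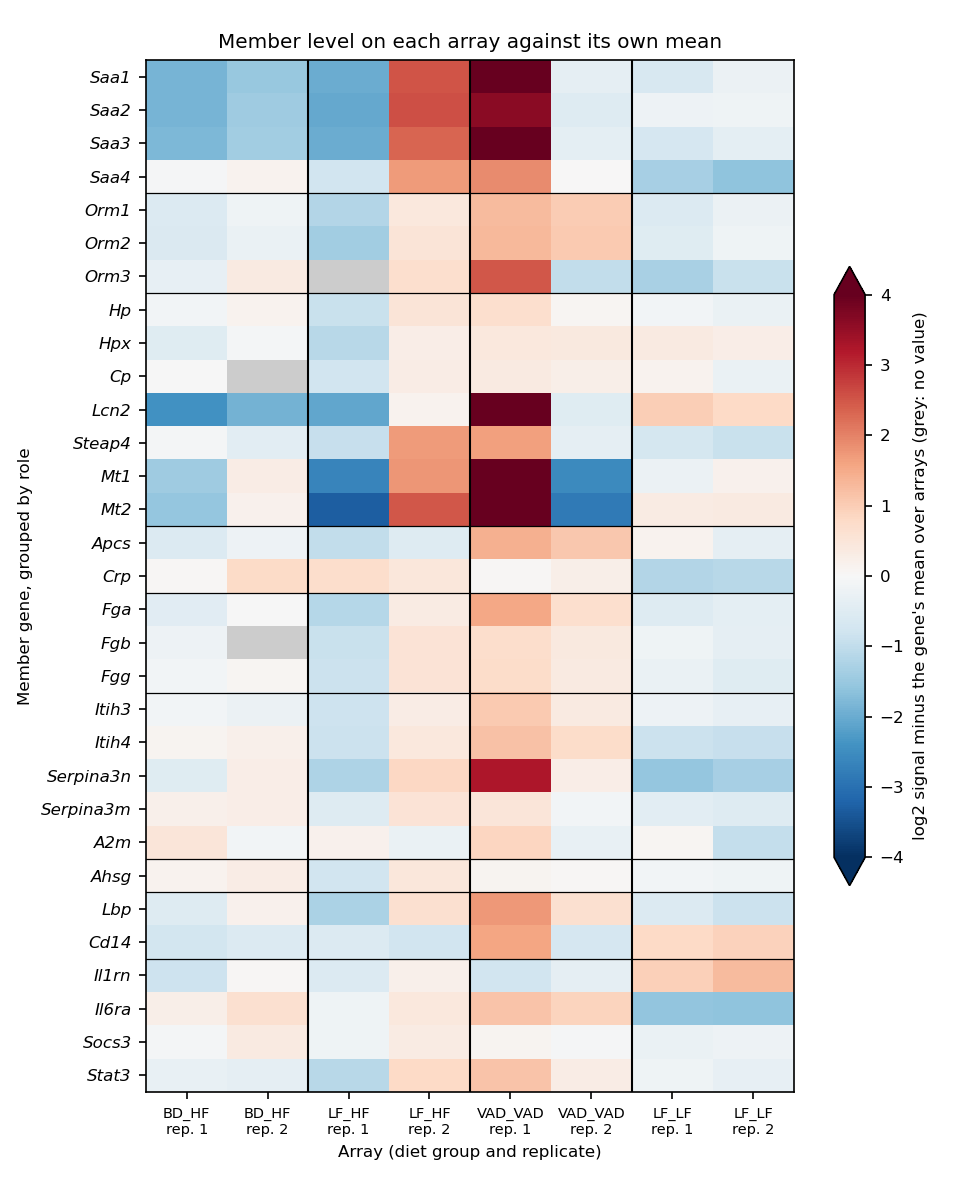
Level of each of the 31 members on each array minus the member's own mean over its arrays, on the log2 scale; colours reach their limit at −4 and 4, and grey marks no value. VAD_VAD replicate 1 is the highest array for 22 of the 28 complete members and LF_HF replicate 1 the lowest for 18.

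Vitamin A deficiency, compared in VAD_VAD and LF_LF, was the comparison in which most members pointed the same way. The fitted difference was above 0 for 29 of 31 members, against 56.7% of all genes, with a median of 1.27, against 0.09 over all genes. Both VAD_VAD arrays lay above both LF_LF arrays for 22 of 31 members (71.0%), against 32.4% of all genes, and below for Il1rn alone, against 25.5% of all genes. The share above was not particular to the members. It was 10 of 14 hepatocyte markers (71.4%), 18 of 25 other inflammation-induced liver genes (72%) and 11 of 13 negative acute phase genes (84.6%). In these lists 0, 2 and 0 genes lay below. All such counts use a gene's probe of highest mean. Cp and Stat3 are counted as above, but on a second probe Cp lay below LF_LF and Stat3 overlapped it. By limma with Benjamini-Hochberg adjustment over all genes, 1 of 31 passed the threshold of 0.05, against 0.57% of all genes, and 11 of 31 had an unadjusted p under 0.05, against 10.3% of all genes. The median was 1.76 between the arrays of slide 1 and 0.53 between those of slide 2, and without VAD_VAD replicate 1 it was 0.37, with 25 of 31 above 0.

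The member that passed was Il6ra, the receptor chain that binds IL-6. It stood at −0.18 and 0.22 for BD_HF, −0.61 and −0.0041 for LF_HF, 0.70 and 0.46 for VAD_VAD, and −2.0 and −2.03 for LF_LF. Both LF_LF arrays lay more than 1 below every other array. Il6ra rose by 2.60 (SE 0.346, adjusted p = 0.0348) in VAD_VAD relative to LF_LF, a 6.04-fold difference, with 2.70 on slide 1 and 2.49 on slide 2. With slide as a block the adjusted p was 0.0506, which ends the call, and over all alternatives it ran from 0.000495 to 0.400. The second probe, in another exon, differed by 2.64. Il6ra also differed by 1.71 (SE 0.346, adjusted p = 0.0541) for LF_HF minus LF_LF, which shares the 2 LF_LF arrays, and by 0.33 (SE 0.346, adjusted p = 0.788) for BD_HF minus LF_HF.

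**Figure D4:**
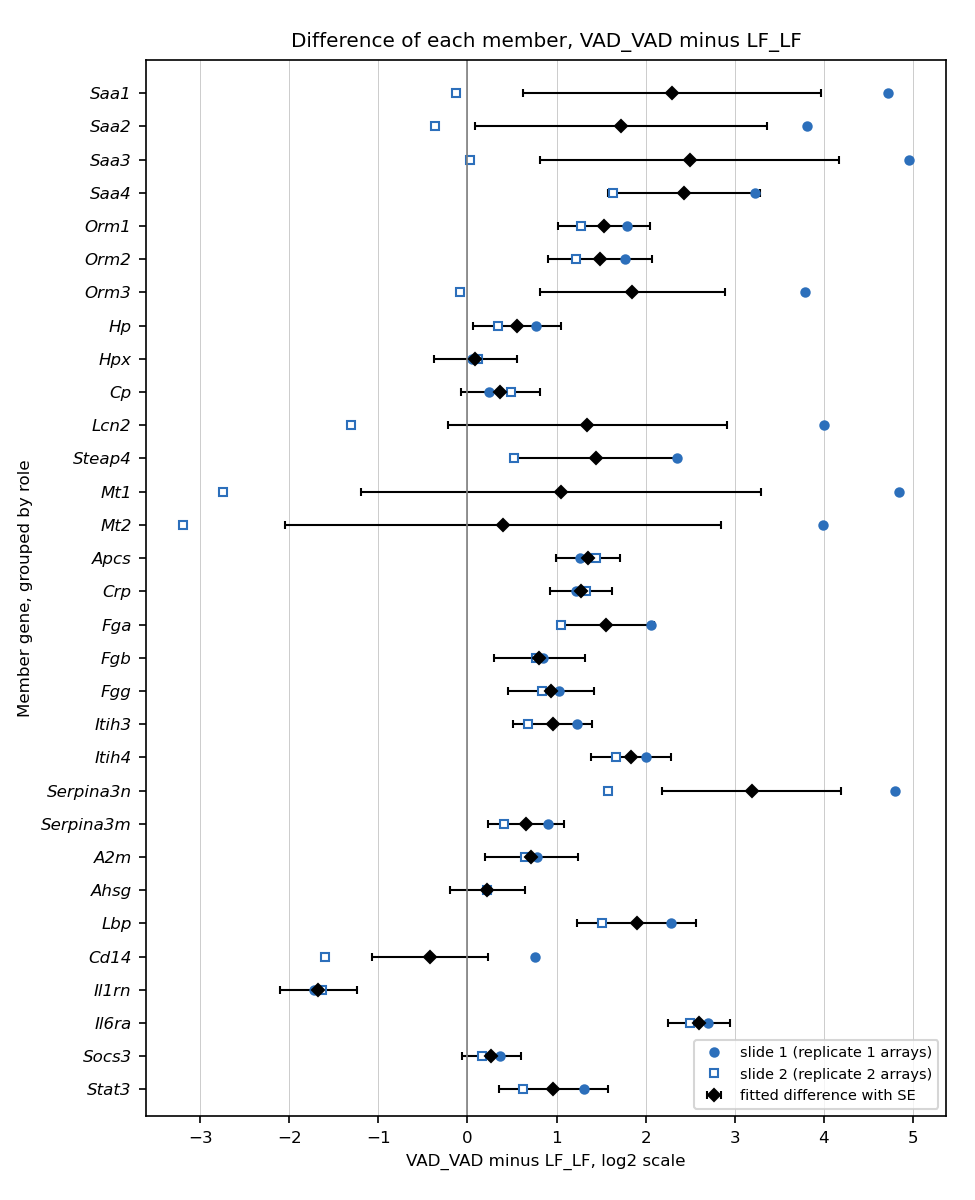
Difference of each member for VAD_VAD minus LF_LF on the log2 scale: diamonds are fitted differences with their standard errors, filled circles the slide 1 arrays and open squares the slide 2 arrays. Il6ra, Itih4, Apcs, Crp and Il1rn have close values on the slides, whereas Mt1, Mt2 and Lcn2 lie above 0 on slide 1 and below 0 on slide 2.

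For description, the members were split at a difference of 1 between their VAD_VAD arrays. The differences ran on across that cut without a clear gap, from 1.13 for A2m and 1.09 for Lbp to 0.88 for Fga and 0.83 for Stat3. Of the 18 members whose VAD_VAD arrays were within 1 of each other, 17 lay above both LF_LF arrays, against 35.3% of all genes with such close arrays, with a median difference of 0.94 over the 18, against 0.09. Of the 13 with wider VAD_VAD arrays, 5 did, against 14% of all genes with wider arrays, with a median difference of 1.73, against 0.14. A small spread makes separation easier, so these counts are a description. Socs3 is among the 18 by its probe of highest mean, which lies on the strand opposite to the gene. On the probe of the gene's own strand its arrays were more than 1 apart in VAD_VAD (4.32 and 1.70) and in LF_HF (−0.08 and 1.56). The counts of members past 1 in these groups do not include it.

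The orosomucoids Orm1 and Orm2, lipocalins that carry drugs and lipids in plasma, belonged to those with close arrays. Orm1 stood at 5.20 and 5.57 for BD_HF, 4.58 and 6.17 for LF_HF, 7.0 and 6.78 for VAD_VAD, and 5.21 and 5.51 for LF_LF. Orm2 stood at 5.65 and 5.94 for BD_HF, 4.84 and 6.74 for LF_HF, 7.50 and 7.27 for VAD_VAD, and 5.74 and 6.06 for LF_LF. For both genes the 2 VAD_VAD arrays were the highest of the 8, and the differences from LF_LF were 1.53 (SE 0.519, adjusted p = 0.346) and 1.49 (SE 0.581, adjusted p = 0.431), which did not pass. Orm3 stood at −1.41 and −0.72 for BD_HF, −0.40 on LF_HF replicate 2, 1.41 and −2.06 for VAD_VAD, and −2.37 and −1.98 for LF_LF. It had high levels on VAD_VAD replicate 1 alone within that group, and its fit dropped the missing LF_HF array. The 3 genes are neighbours on chromosome 4 and similar in sequence, so cross-reaction of their probes is possible.

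Among the pentraxins, Apcs, encoding serum amyloid P, a marked acute phase protein in mice, stood at 1.99 and 2.35 for BD_HF, 1.56 and 2.03 for LF_HF, 3.96 and 3.65 for VAD_VAD, and 2.70 and 2.20 for LF_LF. It differed by 1.36 (SE 0.357, adjusted p = 0.217) for VAD_VAD minus LF_LF, with 1.27 and 1.44 on the 2 slides. Crp, C-reactive protein, which responds little in mice, stood at −0.77 and −0.05 for BD_HF, −0.13 and −0.35 for LF_HF, −0.76 and −0.60 for VAD_VAD, and −1.98 and −1.92 for LF_LF. As for Il6ra, both LF_LF arrays were more than 1 below all other arrays, and the difference was 1.27 (SE 0.347, adjusted p = 0.228) for VAD_VAD and 1.71 (SE 0.347, adjusted p = 0.0541) for LF_HF, each against LF_LF.

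The fibrinogen chains, which form the clotting protein together and lie side by side on chromosome 3, all stood higher on both VAD_VAD arrays than on both LF_LF arrays. Fga stood at 5.27 and 5.70 for BD_HF, 4.59 and 6.05 for LF_HF, 7.27 and 6.39 for VAD_VAD, and 5.21 and 5.34 for LF_LF. The differences were 1.55 (SE 0.538, adjusted p = 0.360) for Fga, 0.81 (SE 0.513) for Fgb and 0.93 (SE 0.484) for Fgg, and none of the 3 passed. The Fgb fit dropped BD_HF replicate 2.

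Serpina3n, an inhibitor of serine proteases, had the largest difference of all members between VAD_VAD and LF_LF. It stood at 3.58 and 4.34 for BD_HF, 2.86 and 4.92 for LF_HF, 7.33 and 4.34 for VAD_VAD, and 2.53 and 2.76 for LF_LF. The difference was 3.19 (SE 1.00, adjusted p = 0.299), or 9.11-fold, with 4.80 on slide 1 and 1.58 on slide 2. Itih4, a heavy chain of the inter-alpha-trypsin inhibitor family, stood at 5.54 and 5.64 for BD_HF, 4.57 and 5.84 for LF_HF, 6.59 and 6.18 for VAD_VAD, and 4.58 and 4.51 for LF_LF. Its difference of 1.83 (SE 0.448, adjusted p = 0.184) was close on the slides, 2.0 and 1.66. Itih3, another heavy chain, differed by 0.96 (SE 0.443) and Serpina3m, a neighbour and relative of Serpina3n, by 0.66 (SE 0.426). A2m, encoding alpha-2-macroglobulin, was dim, between −4.48 and −2.70 over the 8 arrays, and its groups overlapped.

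Lbp, which carries lipopolysaccharide to CD14, stood at 2.48 and 3.16 for BD_HF, 1.73 and 3.65 for LF_HF, 4.74 and 3.65 for VAD_VAD, and 2.45 and 2.15 for LF_LF, a VAD_VAD minus LF_LF difference of 1.90 (SE 0.668, adjusted p = 0.370). Cd14, the co-receptor on macrophages and neutrophils, stood at −1.20 and −1.02 for BD_HF, −1.01 and −1.23 for LF_HF, 1.10 and −1.14 for VAD_VAD, and 0.34 and 0.47 for LF_LF. It was the only member besides Il1rn with a fitted difference below 0 for VAD_VAD, −0.42 (SE 0.652). Il1rn, the antagonist of the IL-1 receptor, stood at −2.65 and −1.78 for BD_HF, −2.38 and −1.60 for LF_HF, −2.58 and −2.18 for VAD_VAD, and −0.86 and −0.55 for LF_LF. Both LF_LF arrays were the highest of the 8, and the difference was −1.67 (SE 0.434, adjusted p = 0.212) for VAD_VAD and −1.28 (SE 0.434, adjusted p = 0.202) for LF_HF, each minus LF_LF. A second Il1rn probe, well above background on 3 of 8 arrays, stood at −1.30 on LF_HF replicate 1 and between −6.75 and −4.94 on the other 7, and is not compared.

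Stat3, the transcription factor activated by IL-6, stood at 4.32 and 4.25 for BD_HF, 3.50 and 5.41 for LF_HF, 5.75 and 4.92 for VAD_VAD, and 4.45 and 4.30 for LF_LF, and its difference of 0.96 (SE 0.611) for VAD_VAD did not pass. On a second, dimmer Stat3 probe VAD_VAD and LF_LF overlapped, with a difference of 0.24. For Socs3, a feedback inhibitor of STAT3 signalling, the probe with the higher mean lies on the plus strand of chromosome 11, while the RefSeq entry of the gene is on the minus strand, and it differed by 0.27 (SE 0.330). The other Socs3 probe, on the gene's own strand, stood at 0.97 and 0.98 for BD_HF, −0.08 and 1.56 for LF_HF, 4.32 and 1.70 for VAD_VAD, and 0.90 and 1.48 for LF_LF. On that probe VAD_VAD replicate 1 was again the highest array, and the difference from LF_LF was 1.82. Ahsg, encoding fetuin-A, a negative acute phase protein, stood within 9.09 to 10.28 on all arrays and differed by 0.22 (SE 0.422).

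Markers of other cells were also unequal between VAD_VAD and LF_LF. The summed level of 10 of the 13 neutrophil markers was 1.9 and 2.4 for BD_HF, 6.8 and 6.5 for LF_HF, 20.0 and 26.3 for VAD_VAD, and 4.9 and 4.8 for LF_LF. S100a8, a defining neutrophil gene, stood at 1.66 and 1.87 for VAD_VAD and at −0.68 and −0.84 for LF_LF. S100a9, its partner, stood at 3.96 and 4.41 for VAD_VAD and at 1.94 and 1.91 for LF_LF, and, of the 10 neutrophil markers, 5 differed by more than 1 between the VAD_VAD arrays, 2 of them higher on replicate 1 and 3 on replicate 2. The hepatocyte markers had a median VAD_VAD minus LF_LF difference of 0.66, with 14 of 14 above 0 and 0 past the threshold, against 1.27 for the members. The 16 Kupffer cell and macrophage markers summed to 99 and 147 for VAD_VAD and 214 and 200 for LF_LF, with 12 of 16 below 0, a median of −0.55, and 1 higher and 1 lower past the threshold. The 10 stellate cell and fibroblast markers summed to 138 and 102 for VAD_VAD and 205 and 177 for LF_LF, with 9 below 0 and 4 lower past the threshold. The 6 measured cholangiocyte markers were all lower on both VAD_VAD arrays than on both LF_LF arrays, with 0 past the threshold. The 4 measured of 8 erythroid markers summed to 182 and 330 for VAD_VAD and 80 and 83 for LF_LF, with a median difference of 1.88 and 0 past the threshold. The part of these markers in the members' differences was not tested.

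The high fat diet after weaning, compared in LF_HF and LF_LF, left 0 of 31 members past the limma threshold, against 2.49% of all genes, and 3 of 31 (Crp, Il6ra and Il1rn) at an unadjusted p under 0.05, against 16.6% of all genes. The median member difference was 0.08, against −0.02 for all genes, with 19 of 31 above 0, against 48.7% of all genes. It was −0.73 on slide 1 and 0.97 on slide 2, so LF_HF replicate 1 and replicate 2 pointed opposite ways. Its sign also turned when each array was scaled to its median in place of its 75th percentile. The 2 LF_HF arrays lay above both LF_LF arrays for Saa4, Crp, Serpina3n, Il6ra and Socs3, 16.7% of the 30 members with values, against 20.9% of all genes. For Socs3 this held on the probe of the opposite strand only, since on the probe of the gene's own strand the groups overlapped and the difference was −0.45. They lay below for Lcn2, Apcs, Cd14 and Il1rn, 13.3%, against 21.3% of all genes. Cd14 differed by −1.52 (SE 0.652, adjusted p = 0.301), with −1.35 and −1.69 on the slides, while the macrophage markers summed to 84 and 75 for LF_HF and 214 and 200 for LF_LF, with 1 higher and 4 lower past the threshold. Their part in the Cd14 difference was not tested.

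The number of members past the threshold in this comparison rested on single arrays. Without LF_HF replicate 1 there were 4 of 31, Saa4, Crp, Itih4 and Il6ra, all higher, against 11% of all genes in that fit. Without LF_HF replicate 2 there were 5 of 31, with Crp and Il6ra higher and Orm2, Hpx and Il1rn lower, against 25.7% of all genes. The members' share was near the share of all genes without replicate 1 and below it without replicate 2. Crp and Il6ra were called in both cases, and in either the lone array is assumed to vary like the other groups.

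The maternal diet, compared in BD_HF and LF_HF, left 0 of 31 members past the limma threshold, against 0.00576% of all genes (1 gene), and 0 of 31 at an unadjusted p under 0.05, against 5.45% of all genes. The median difference was 0.01, against 0.17 over all genes, and 18 of 31 were above 0, against 61.7% of all genes. The groups were apart for 0 members, against 17.5% of all genes in the higher and 9.56% in the lower direction. The groups overlapped for all 28 members with every value, the median was 0.69 on slide 1 and −0.48 on slide 2, and the widest differences, −1.97 for Saa1 (SE 1.67), −1.91 for Saa2 (SE 1.64) and −1.75 for Saa3 (SE 1.68), came with standard errors of nearly their own size. Across all 4 groups the moderated F-test called 0 of 31 members, against 0.864% of all genes, with 6 at an unadjusted p under 0.05, against 13.2% of all genes, and the smallest adjusted p, 0.0534, for Il6ra.

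Other genes of the pathway gave 0 calls in all 3 comparisons. The 40 IL-6, IL-1 and TNF pathway genes had medians of 0.03 for BD_HF minus LF_HF, −0.21 for LF_HF minus LF_LF and 0.17 for VAD_VAD minus LF_LF. The 25 measured of 26 other inflammation-induced liver genes had medians of 0.21, −0.03 and 0.63 in the same order. The 13 negative acute phase genes, Alb and Ttr among them, had medians of 0.31, 0.13 and 0.47, and 11 of 13 were above 0 for VAD_VAD minus LF_LF, the same side as 29 of the 31 members. The cytokine genes were dim: Il6 was well above background on 5 of 8 arrays and Tnf on 3 of 8, while Il1b was on 8 of 8.

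The 3 pathway genes with the largest differences between VAD_VAD and LF_LF also had unequal VAD_VAD arrays. Il1r1, the signalling receptor of IL-1, stood at 4.86 and 2.68 for VAD_VAD and 0.66 and 1.09 for LF_LF (difference 2.90, SE 1.07, adjusted p = 0.400). The chemokine gene Cxcl1 stood at 2.32 and −0.08 for VAD_VAD and −1.63 and −1.74 for LF_LF (2.80, SE 0.696, adjusted p = 0.193), and Gadd45g, a stress-induced gene, at 8.39 and 5.85 for VAD_VAD and 4.42 and 4.86 for LF_LF (2.48, SE 1.13). For all 3, replicate 1 was the higher VAD_VAD array, as for the serum amyloids, and both arrays lay above LF_LF. Ccl2 and Relb went the other way by nearly as much. Ccl2 stood at −2.30 and −2.43 for VAD_VAD and 0.27 and −0.08 for LF_LF (−2.46, SE 0.851). Relb stood at −1.86 and −1.14 for VAD_VAD and 0.71 and 0.97 for LF_LF (−2.34, SE 0.607). Between LF_HF and LF_LF the largest were Gadd45g (−2.27, SE 1.13), Cxcl10 (−2.20, SE 0.483, adjusted p = 0.0686) and Ccl2 (−2.09, SE 0.851). Between BD_HF and LF_HF they were Gadd45g (1.86, SE 1.13), Cxcl1 (−1.79, SE 0.696) and the decoy receptor gene Il1r2, each with an adjusted p of 0.786. Il1r2 was not well above background on either BD_HF array, with measured means of −6.35 for BD_HF and −3.45 for LF_HF. Against the lowest signal well above background on the BD_HF arrays, the LF_HF mean was at least 2.94-fold higher. That bound is for the mean only, since Il1r2 stood at −2.56 on LF_HF replicate 1 and −4.33 on replicate 2.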

How the data were processed

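Total liver RNA was amplified, labelled with Cy3 and hybridised to single-colour Agilent arrays, per the labels' protocols, 8 arrays in 4 diet groups of 2. Per the file headers, Agilent Feature Extraction 10.7.3.1 read the images, and the deposited files give the processed signal of each spot as an intensity after background subtraction and detrending, plus raw mean and background intensities. The submitters' processing notes name limma with no version or role. The authors' deposited series table holds the same intensity rounded. The headers record no scaling between arrays.

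Control spots and outlier spots were left out, spots of a probe were averaged, and log2 processed intensity minus the log2 of each array's 75th percentile was computed from the deposited values. Probes dim in every group were dropped (26224 of 41174 kept), the probe with the highest mean stood for a gene, and 17354 genes were fitted with limma 3.58.1 in R 4.3.3 (group means over 8 arrays, 4 residual and 3.42 prior degrees of freedom, Benjamini-Hochberg over all genes, threshold 0.05). A gene's groups are apart when every array of one lies beyond every array of the other. Only 2 arrays a group limit the precision. The fit was tested on simulated data with known changes.

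The members, gene lists and tests were chosen with earlier results of these data known. All members are accounted for. From the pathway lists, genes past the threshold, or else the 3 with the largest difference per comparison that were above background on both arrays of a group, are named. Ccl2 and Relb are added as genes lower in VAD_VAD. Same-numbered arrays shared a slide, and their deviations from the group means correlated by 0.0998 to 0.300 over genes between groups. Alternatives were other scalings, background corrections, filters, probe rules, variance settings, blocks and leaving out each array. Probe positions are mm9, per the file headers, and promoters are RefSeq sequences on GRCm38.p6, which were not mixed.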

Additional observations from a re-analysis of the deposited data

How the results depend on the processing

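Over 1856 member values under the alternatives, 1676 kept their side of the threshold and their sign, 126 that were not called changed sign, 44 passed the threshold, 10 no longer did, and 0 called values reversed. Members called for VAD_VAD minus LF_LF numbered 0 of 31 with median scaling, with no filter, and with the replicate block, which is the slide block (0.213%, 0% and 0.328% of all genes); 3 with normexp under either scaling (2.07% and 2.11%); 2 with trend and robust variances and with those 2 groups alone (1.72% and 2.88%); and 11 with array weights (6.75%). Leaving out an array gave 0 to 6, with 6 without either LF_HF array (5.31% of all genes each) and 0 without any of the other 6. For LF_HF minus LF_LF there were 2 with normexp and the 75th percentile, the stricter filter, and trend and robust variances (15%, 3.25% and 4.65% of all genes), 1 with normexp and quantile normalization and with the median of probes (7.74% and 1.57%), and 0 to 5 without an array. The F-test called 3 with normexp and the 75th percentile and with trend and robust variances (4.11% and 4.39% of all genes), 2 with normexp and quantile normalization and with array weights (4.92% and 2.51%), 1 with the stricter filter and the median of probes (1.58% and 0.628%), and 0 to 12 without an array (12 without LF_HF replicate 2, 24.2% of all genes). For BD_HF minus LF_HF there were 0 to 1 without an array, the 1 being Ahsg without LF_HF replicate 2 (18.5% of all genes). Members past 1 between replicates were 7 in BD_HF with median scaling (8.12% of all genes), and 0 in LF_LF with median scaling and with normexp under either scaling (2.9%, 0.282% and 0.248%). In LF_HF they were 30 of 30 with median scaling (81% of all genes). With normexp they were 18 with the 75th percentile (8.3%) and 12 with quantile normalization (9.54%). The causes of these changes were not tested, beyond fewer samples or genes where these were the setting.

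Scaling each array to its median in place of its 75th percentile moved the median of all genes by 0.79 for BD_HF minus LF_HF, −0.71 for LF_HF minus LF_LF and 0.08 for VAD_VAD minus LF_LF. The member medians were then 0.83, −0.66 and 1.35, so for LF_HF minus LF_LF the sign turned. Without an array, the medians ran from −0.61 to 0.76, −0.70 to 0.94 and 0.37 to 1.60. The replicate block changed no other call among the members. With 2 arrays a group, a missed threshold does not show that a gene did not differ.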
